A study of Bos taurus with 40 samples.

Results

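Ooplasm biopsies are small samples of cytoplasm drawn from single bovine oocytes matured in vitro. Granulosa cells had been taken from the follicle of each oocyte before the oocyte and its cumulus cells were matured. Each oocyte was followed afterwards, and 8 of the 40 samples are biopsies whose title carries the fate of the oocyte. The blastocyst group holds the biopsies B20, B21, D24 and D27, from oocytes that reached the blastocyst stage. The cleavage group holds B14, B23, D10 and D29, from oocytes that stopped at cleavage. All 8 were labelled diploid, and no agent, allele or animal age sets the groups apart in the labels. The labels do not name the animals, so the p-values here measure only the spread between biopsies, and some of these may share an animal. The letters B and D in the oocyte names are not explained. The study set out to relate ooplasm RNA to the competence of the oocyte.

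An oocyte that has finished growth transcribes little, and the embryo runs on stored maternal RNA until its own genome is switched on. These stores are kept dormant or put to use largely through the length of their poly(A) tails, and the libraries were labelled as polyA RNA. In a biopsy a smaller volume of ooplasm and less RNA per volume cannot be told apart, because every level here is relative to the library. The counts per library were 16804281 to 22557007 over 59051 rows, which are named by Ensembl identifiers (27607), NONCODE identifiers (22227), LOC identifiers (7848) or symbols (1369). NONCODE is a catalogue of long noncoding RNAs. With RefSeq names for LOC identifiers, 2474 rows carried a symbol, and the rest are described by kind.

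The biopsies carried oocyte RNA, and rows of the cells around the oocyte held a small share of the counts. H1FOO, the linker histone of the oocyte, had 918, 1312, 879 and 736 CPM (counts per 1000000, scaled by TMM, which evens out library composition) in B20, B21, D24 and D27, and 720, 1018, 1529 and 1308 CPM in B14, B23, D10 and D29. The groups overlapped and differed by less than their spread (961 ± 247 against 1144 ± 352 CPM, SD, n = 4). Somatic rows were defined as those with at least 50 CPM in each of the cumulus libraries and under 0.5 CPM in each whole oocyte. These 138 rows held 0.00613% to 0.0228% of the counts in biopsies, against 0.227% to 0.806% in granulosa cells. The share was lower in the matched set of the series, at 0.00246% to 0.00469% in its 4 biopsies and 0.000719% to 0.00254% in its 4 whole oocytes. Each of the 8 biopsies lay above every one of these. The rule for somatic rows keeps these whole oocytes low, and the matched biopsies come from the same oocytes, so the gap is partly set by the rule. By fate it was 0.0136% ± 0.0026 in the blastocyst group and 0.0147% ± 0.0072 in the cleavage group (exact two-sided permutation p = 0.771, n = 4). The list of granulosa and cumulus markers had 7 rows. CYR61, WISP2 and NOV were at most 1.13 CPM in every biopsy, and each was at 0 in at least 1. WISP1 had 0 to 2.49 CPM, CTGF 2.32 to 9.14 and COL4A4 0.55 to 8.73. WISP3 had 17.1 to 39.8 CPM in biopsies, 22.2 to 26.7 in whole oocytes and 0.977 to 7.46 in granulosa cells, so these data go against its use as a granulosa marker. The part of somatic RNA in the results below was not tested.

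The correlations between biopsies reached lower values in the cleavage group, a difference that was not tested. Pearson correlations of log2 CPM across rows, which are not independent replicates, were 0.831 to 0.861 within the blastocyst group and 0.789 to 0.838 within the cleavage group. They were 0.78 to 0.862 between the groups. The median SD of a tested row on the log2(CPM + 1) scale was 0.548 in the blastocyst group and 0.657 in the cleavage group. D10 held 19993 rows with 5 counts or more, and the other 7 biopsies 23040 to 25274. Thinned to the smallest total, D10 had 19695 rows and the others 22488 to 25274. The mean number of detected rows was 24168 ± 713 against 23062 ± 2242, a difference within the spread (exact permutation p = 0.486, n = 4).

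**Figure D1:**
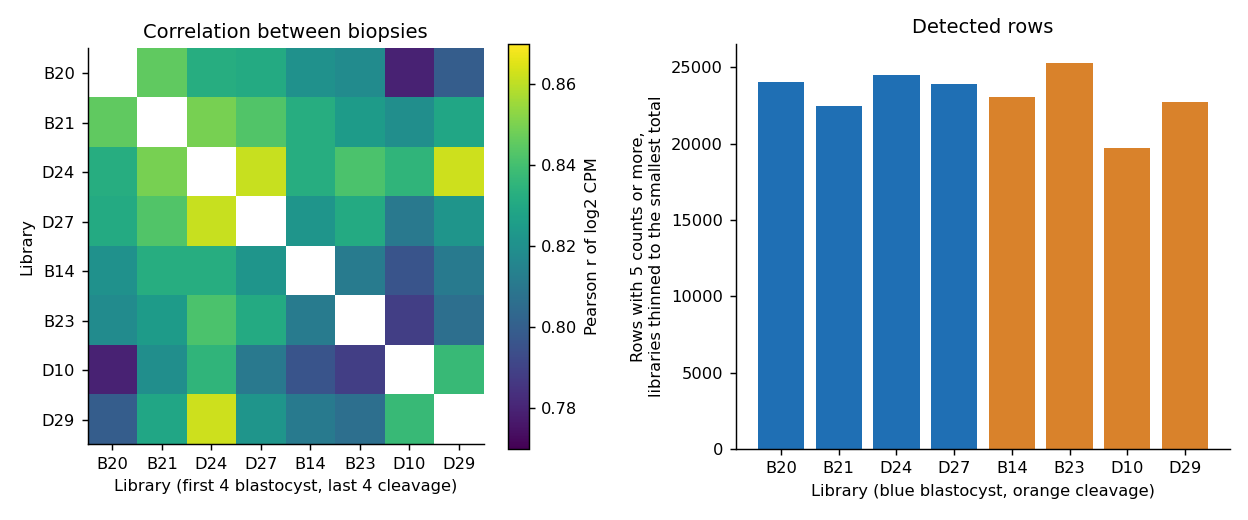
Left, Pearson correlation of log2 CPM for each pair of biopsies, with the diagonal left white. Right, rows with 5 counts or more after thinning every library to the smallest total. D10 and B20 are the least alike pair (0.78), and D10 has the shortest bar at 19695 rows.

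No row passed the edgeR test of blastocyst against cleavage biopsies. Of 21174 rows tested with edgeR, 0 had an adjusted p under 0.05, and the smallest adjusted p was 0.485. At an unadjusted p under 0.05 there were 530 higher rows (2.5% of those tested) and 487 lower ones (2.3%), 1017 in all (4.8%). DESeq2, run on all 41575 rows with a count, called 118 rows higher (0.284%) and 64 lower (0.154%) at an adjusted p under 0.05. On the 21174 rows that edgeR tested, DESeq2 called 34 higher and 22 lower. Leaving out 1 biopsy at a time, the DESeq2 calls numbered 88 (without D27) to 353 (without B23). They were 95 without B20, 254 without B14, 289 without D24, and 123 to 193 without B21, D10 or D29. With D10 and B20 both left out, there were 0 edgeR calls, and 727 rows had an unadjusted p under 0.05.

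The same biopsies can be split by the letter in the oocyte name, with 2 oocytes of each fate under each letter. With fate as a covariate, edgeR made 0 calls between D and B. The unadjusted p was under 0.05 in 1511 rows (7.14%), with D above B in 835 (3.94%) and below in 676 (3.19%), against 1017 rows for fate. DESeq2 was not run on the letters. Adding the letter to the fate comparison left 0 edgeR calls, with the unadjusted p under 0.05 in 1187 rows.

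The kinds of row differed in their median. NONCODE rows lay higher in the blastocyst group, with a median log2 fold change of 0.32 over 2861 tested rows, and 66.0% of them were above 0. The medians were -0.06 for 15257 Ensembl rows, -0.08 for 2281 LOC rows, -0.06 for 775 rows with a symbol in the file and -0.02 over all rows. Among the NONCODE rows 214 were higher and 17 lower at an unadjusted p under 0.05, whereas among the Ensembl rows 264 were higher and 408 lower. The values of every biopsy in the blastocyst group exceeded all those of the cleavage group in 157 NONCODE rows (5.49%), and the reverse held in 15 (0.524%). Over all tested rows these shares were 2.09% and 1.42%, 3.51% in all. The pattern was noticed in these data, so it is given as a description without a test.

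The excess of higher NONCODE rows was larger among rows with more counts. Between 30 and 100 CPM, 47 of 268 NONCODE rows (17.5%) had non-overlapping groups with the blastocyst group higher and 0 with it lower. In the same range 48 of 2727 Ensembl rows were higher in this sense (1.76%) and 64 lower (2.35%). Over 100 CPM, the counts were 15 of 89 NONCODE rows higher (16.9%) and 0 lower, against 44 (2.32%) and 24 (1.27%) of 1895 Ensembl rows. Under 1 CPM, 5 of 276 NONCODE rows (1.81%) and 13 of 966 Ensembl rows (1.35%) were higher. The median log2 fold change of NONCODE rows climbed from 0.20 under 1 CPM to 0.48 between 30 and 100 CPM and was 0.35 over 100 CPM, while the Ensembl medians ran from 0.13 to -0.13.

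**Figure D2:**
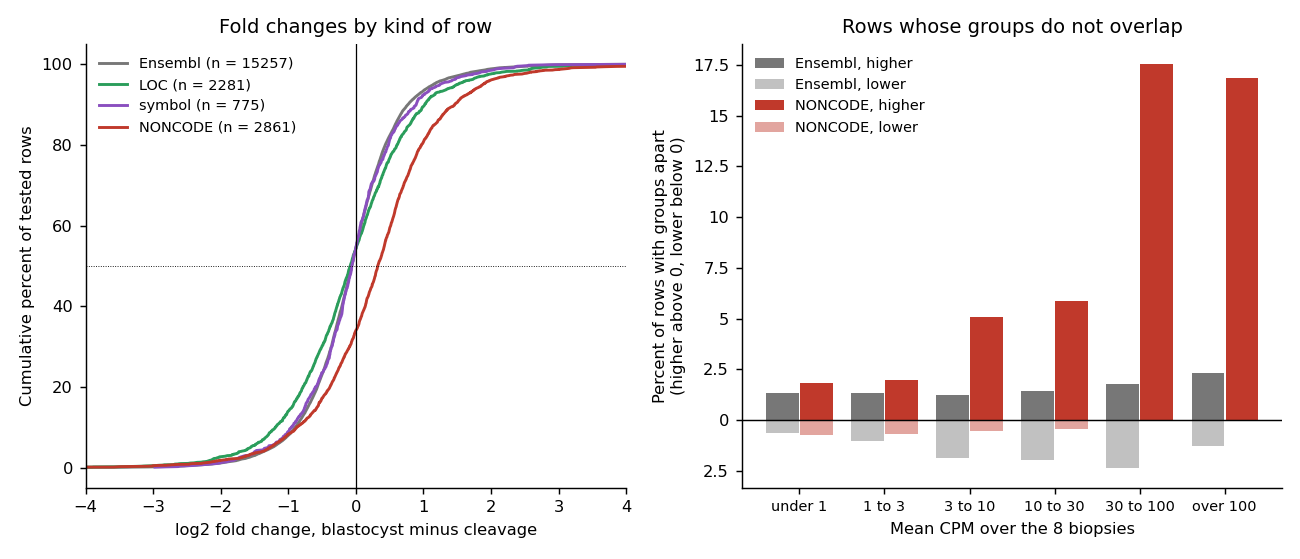
Left, cumulative percent of tested rows against the log2 fold change of blastocyst minus cleavage biopsies, 1 line per kind of row. Right, percent of Ensembl and NONCODE rows whose 4 blastocyst values all lie above (upward bars) or below (downward bars) the 4 cleavage values, by mean CPM. The NONCODE line lies to the right of the other lines over most of its course, and its upward bar reaches 17.5% between 30 and 100 CPM.

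Per biopsy, NONCODE rows took 6.90%, 6.21%, 7.06% and 7.20% of the counts in B20, B21, D24 and D27. In B14, B23, D10 and D29 they took 6.53%, 5.83%, 5.30% and 4.74%. B14 lay above B21, and otherwise the groups were apart. The means were 6.84% ± 0.44 and 5.60% ± 0.76 (exact two-sided permutation p = 0.0571, adjusted 0.343 over 8 measures, n = 4). The overlap was wider on other scales. As CPM summed over NONCODE rows, B14 (69212) lay above B20 (68057), B21 (67439) and D24 (68146), with an exact permutation p of 0.114. Without the 10 most abundant rows, B14 (6.30%) and B23 (5.97%) lay above B21 (5.95%), with an exact permutation p of 0.0857. Without B14 the difference in share grew from 1.24 to 1.55 percentage points, with an exact permutation p of 0.0286, the smallest that this design can give. B14 is the cleavage biopsy that overlapped, so leaving it out separates the groups by choice, and this p adds no support. With any other biopsy left out the exact permutation p was 0.0571 to 0.114. The 6 most abundant NONCODE rows held 39.01% of the NONCODE counts in B14 and 12.6% to 25.4% in the other biopsies. The median NONCODE row, measured as the deviation from its own mean over the 8 biopsies on the log2(CPM + 1) scale, weights all rows alike. It stood at 0.07, 0.06, 0.23 and 0.32 in B20, B21, D24 and D27, and at -0.20, 0.0039, -0.11 and -0.18 in B14, B23, D10 and D29. On this scale every blastocyst biopsy was above every cleavage biopsy, and the median Ensembl row stayed between -0.01 and 0.04 in all 8.

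**Figure D3:**
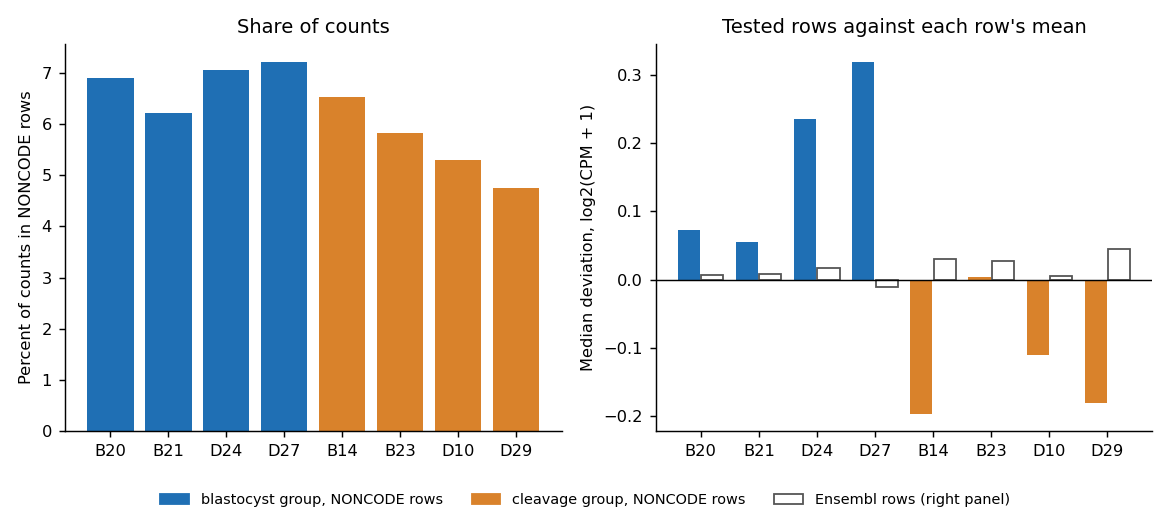
Left, percent of each biopsy's counts in NONCODE rows. Right, median over tested rows of the deviation from each row's mean in log2(CPM + 1), with filled bars for NONCODE rows and open bars for Ensembl rows. Filled bars are 0.06 to 0.32 in the blastocyst group and -0.20 to 0.0039 in the cleavage group.

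In each alternative fit run, the NONCODE median stood 0.30 (without D27) to 0.49 (rows of 10 CPM or more) above the Ensembl median. On all rows with a count, of which DESeq2 called 0.284% higher and 0.154% lower, it called 67 NONCODE rows higher and 8 lower, and 44 Ensembl rows higher and 46 lower. On the rows edgeR tested it called 18 NONCODE rows higher and 2 lower. Without D27 it called 23 NONCODE rows higher and 7 lower, of 45 and 43 rows of any kind. Without B20 these were 31 and 8 of 50 and 45, and without B21 41 and 10 of 68 and 55. Without D24 they were 62 and 22 of 116 and 173, and without B23 117 and 9 of 246 and 107. Without B14 they were 82 and 14 of 161 and 93, without D10 80 and 8 of 136 and 57. Without D29 they were 72 and 13 of 128 and 56. In the comparison of the letters D and B, the NONCODE median was 0.08 and the Ensembl median -0.03. Among the 4 biopsies and 4 whole oocytes of the matched set, whose fates are not in the labels, NONCODE rows took 4.56% to 6.96% and 4.21% to 9.27% of counts. Whether counting used strand is not stated, so reads of a NONCODE row and of a gene that overlaps it may be counted together. In all, 269 of the 21174 tested rows had counts identical to another row in all 8 biopsies, 57 of them NONCODE rows. Without these the NONCODE median was 0.33.

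NONBTAG012392.2, the NONCODE row with the smallest p among those higher, had 71.3, 86.7, 55.5 and 66.3 CPM in B20, B21, D24 and D27. In B14, B23, D10 and D29 it had 18.1, 25.4, 20.5 and 13.4 CPM. The groups were far apart, with a log2 fold change of 1.85 (SE 0.31), an edgeR adjusted p of 0.485 and a DESeq2 adjusted p of 4.22e-06. The edgeR adjusted p ranged from 0.00791 to 1 over the alternatives. NONBTAG002930.2 had 99, 70, 367 and 37 counts in the blastocyst biopsies and 0 in every cleavage biopsy, at least 49.2-fold higher against a floor of 3 counts per library, or at least 22.7-fold without D24. NONBTAG002155.2 had the opposite pattern, with 26, 115, 14 and 68 counts in B14, B23, D10 and D29 and 0 in all 4 blastocyst biopsies, at least 18.6-fold lower, or 11.9-fold without B23. NONBTAG015595.2 had 74, 33, 99 and 12 counts in the cleavage biopsies, 2 in D24 and 0 in the other blastocyst biopsies. The ratio was 109 (95% counting interval 29.8 to 905). This interval and the fold bounds cover counting error only. Biopsies of the same group differed by far more, with a chi-square of 61.6 to 154 per degree of freedom over tested rows (about 1 under counting error alone). They are therefore no bounds on a difference between the groups.

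Rows of this on or off kind were few. Of 41575 rows with a count, 10 had 5 counts or more in every blastocyst biopsy and 0 in every cleavage biopsy (0.0241%), and 3 had the reverse (0.00722%). Of these, 7 and 1 were NONCODE rows, and 2 of the 7 had identical counts. The lower bounds of the fold were 5.51 to 49.2 for the first kind and 3.90 to 19.96 for the second. Without the biopsy of highest CPM in each row they were 2.38 to 22.7 and 3.20 to 12.04. None carried a symbol.

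Among Ensembl rows, which the files do not pair with names, ENSBTAG00000027900 had the smallest p. It had 23.4, 19.5, 33.8 and 28.6 CPM in the blastocyst biopsies and 66.3, 80.2, 125 and 76.2 in B14, B23, D10 and D29. Its log2 fold change was -1.72 (SE 0.31), with an edgeR adjusted p of 0.485 and a DESeq2 adjusted p of 9.04e-05. ENSBTAG00000047203 had means of 16.9 ± 8.47 and 70.9 ± 23.04 CPM (log2 fold change -2.06, n = 4). In the other direction ENSBTAG00000055158 had 419 ± 49.1 against 194 ± 44.5 CPM and ENSBTAG00000010641 103 ± 12.7 against 42.7 ± 9.46 CPM. The groups of these 4 rows did not overlap.

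Of 860 tested rows with a symbol, 22 were higher and 14 lower at an unadjusted p under 0.05, and the smallest edgeR adjusted p was 0.600. The 10 rows of smallest p in each direction are shown in the plot of symbol rows by biopsy. All 20 kept the sign of their log2 fold change whichever biopsy was left out. The groups did not overlap in all 10 of the higher rows and in 3 of the 10 lower rows. Since the rows were ranked by p, the separation is a description. Counts of list members below stand beside 2.5% of all tested rows higher and 2.3% lower at an unadjusted p under 0.05, and 48.3% with a log2 fold change above 0.

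**Figure D4:**
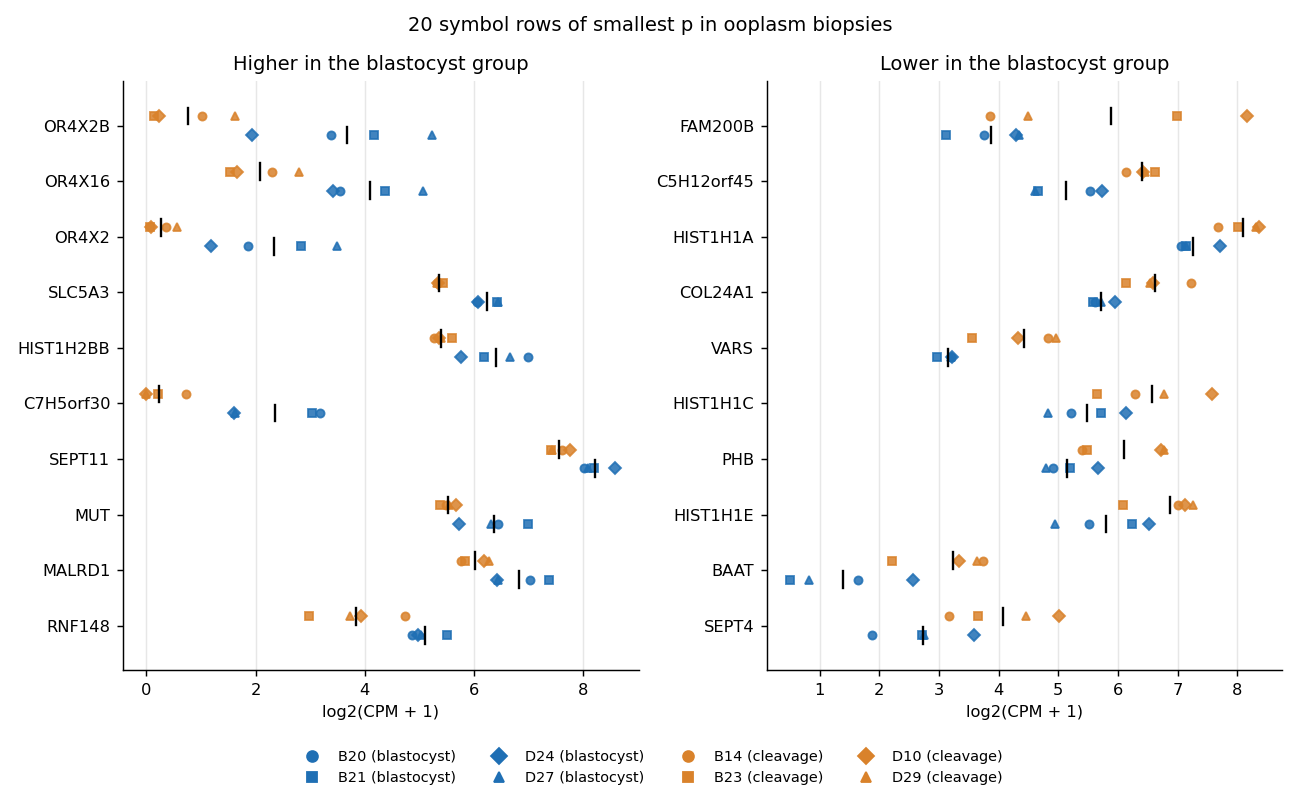
log2(CPM + 1) of the 20 symbol rows of smallest edgeR p, 10 higher (left) and 10 lower (right) in the blastocyst group, 1 marker per biopsy with a shape for each, and a black tick at each group's mean of log2 values. SLC5A3 shows the tightest cleavage group (39.01 to 42.2 CPM), and FAM200B the widest (13.4 to 287 CPM).

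Membrane transport and receptors. SLC5A3, the cotransporter that carries sodium and myo-inositol into cells, had 65.5, 84.7, 66.4 and 86.4 CPM in B20, B21, D24 and D27. It had 39.2, 42.2, 39.5 and 39.01 CPM in B14, B23, D10 and D29. Every blastocyst biopsy exceeded every cleavage biopsy, by a log2 fold change of 0.92 (SE 0.26). The adjusted p was 0.908 with edgeR and 0.00593 with DESeq2. DESeq2 also called it without B14, B20, B23 or D24, but not without B21, D10, D27 or D29, nor on the rows edgeR tested. The other 4 tested solute carriers of 13 in the list had log2 fold changes below 0, none at an unadjusted p under 0.05.

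The olfactory receptor rows OR4X2B, OR4X16 and OR4X2 had the smallest p values of the higher symbol rows. OR4X16 had 10.7, 19.7, 9.74 and 32.8 CPM in the blastocyst biopsies and 3.95, 1.89, 2.17 and 5.99 in the cleavage biopsies (adjusted p 0.670 with edgeR and 0.00668 with DESeq2). In OR4X2B the means were 16.5 ± 14.6 and 0.852 ± 0.933 CPM, and in OR4X2 5.08 ± 4.04 and 0.216 ± 0.202 CPM. D27 was highest in all 3, and without D27 DESeq2 called none of them. OR4X16 also lost its DESeq2 call without B21. Receptor genes of such clusters are alike in sequence, so reads may be split between them, and OR4X16 and OR4X2 each had an Ensembl row with counts within 10% in every biopsy. Of 1024 chemosensory receptor rows, 14 had enough counts to be tested, 3 of them higher and 0 lower at an unadjusted p under 0.05, against 2.5% and 2.3% of all tested rows. The 3 are the OR4X rows, which are not separate observations where they share reads. Between 54 (D10) and 205 (B23) of the 1024 rows had any count.

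Chromatin. Linker histones bind the DNA between nucleosomes. Of 8 tested linker histone rows, 3 were lower and 0 higher at an unadjusted p under 0.05, against 2.3% and 2.5% of all tested rows. A log2 fold change above 0 was found in 2 of the 8, against 48.3% of all rows, and the median log2 fold change was -0.54 against -0.02 over all rows. HIST1H1A had 132, 139, 209 and 141 CPM in the blastocyst biopsies and 203, 256, 328 and 317 in B14, B23, D10 and D29. Only D24 and B14 overlapped, and the log2 fold change was -0.83 (SE 0.24, edgeR adjusted p 0.913). HIST1H1C had 36.2, 51.2, 69.2 and 27.5 CPM against 77.02, 49.2, 190 and 108 CPM. D10 was highest, B23 lay among the blastocyst biopsies, and the log2 fold change was -1.20, or -0.76 to -1.48 with 1 biopsy left out. HIST1H1E followed with 59.9 ± 27.6 against 121 ± 37.8 CPM (log2 fold change -1.02). HIST1H1D had -0.79 and H1FOO -0.25. H1FNT and H1FX, both at most 1.48 CPM in every biopsy, had values above 0. HIST1H1C and HIST1H1E each had an Ensembl row with counts within 10% in every biopsy. The same held for HIST1H2AH, H3F3B, SEPT11, PAPD5, CTGF and RAMMET.

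Core histones form the nucleosome itself. Of 29 tested rows 10 had a log2 fold change above 0, 1 was higher and 1 lower at an unadjusted p under 0.05, and the median was -0.33. The 29 include both HIST2H2AA4 and HIST1H2AK, which had nearly the same value in every biopsy. HIST1H2AH, an H2A gene, had 82.6 ± 19.4 CPM in the blastocyst group and 141 ± 47.9 in the cleavage group, with overlap at B23 (75.3 CPM). HIST1H2BB, an H2B gene, went the other way. It had 127, 71.9, 53.5 and 101 CPM in B20, B21, D24 and D27, and 37.4, 47.6, 39.9 and 41.3 CPM in the cleavage biopsies. Its groups were apart, with a log2 fold change of 1.09 (SE 0.31, edgeR adjusted p 0.908). H3F3B, which encodes the replacement histone H3.3, had the most counts of the histone rows, with 1618 ± 240 against 1315 ± 159 CPM, and its groups overlapped. Most replication-dependent histone messages end in a stem-loop in place of a poly(A) tail, and how far libraries labelled polyA RNA sample them was not tested.

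**Figure D5:**
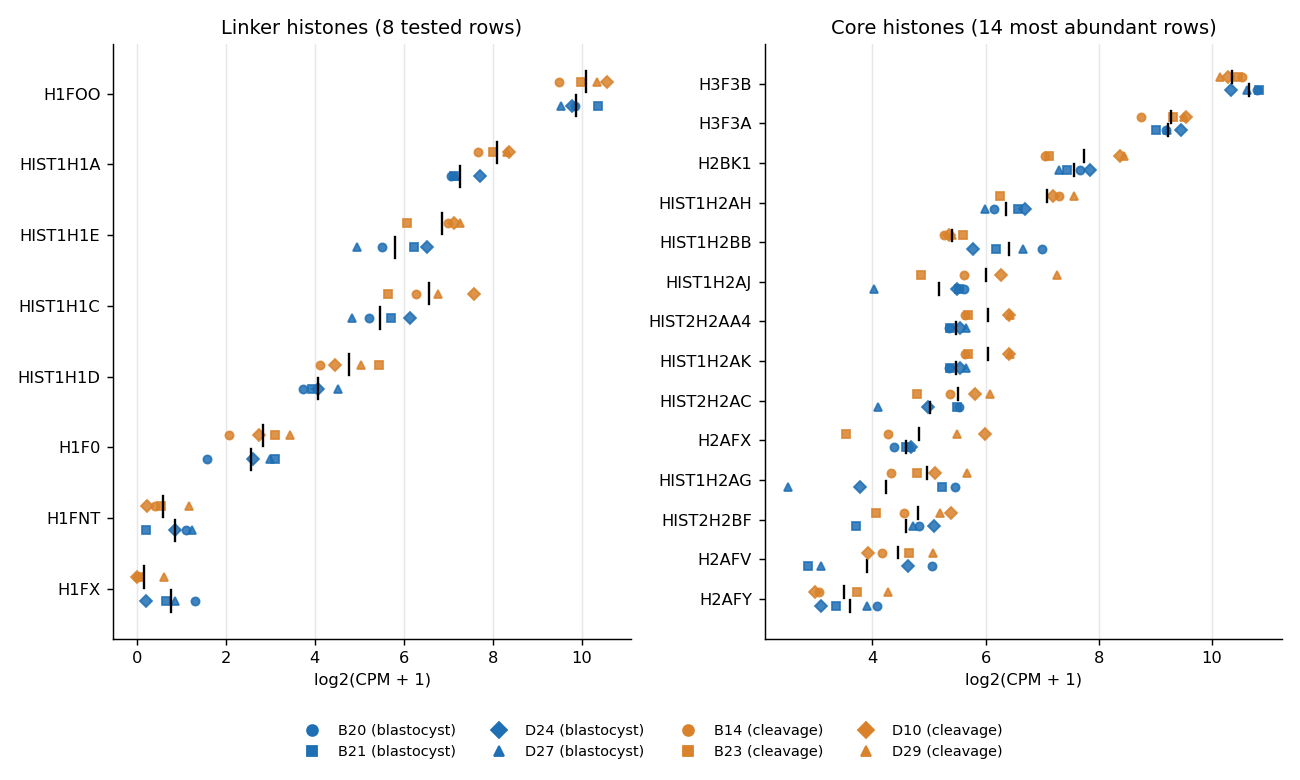
log2(CPM + 1) of the 8 tested linker histone rows and the 14 most abundant core histone rows, 1 marker per biopsy and a black tick at each group's mean of log2 values. HIST1H1A, HIST1H1E and HIST1H1C have lower blastocyst means, and HIST1H2BB a higher one. HIST2H2AA4 and HIST1H2AK have nearly the same value in every biopsy.

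Translation and RNA handling. VARS, valyl-tRNA synthetase, had 8.23, 6.78, 8.31 and 8.18 CPM in the blastocyst biopsies. It had 27.2, 10.8, 19.1 and 30.2 CPM in B14, B23, D10 and D29, all higher, with a log2 fold change of -1.47 (SE 0.44). The adjusted p was 0.932 with edgeR and 0.0267 with DESeq2, which called it again only without B23 among the biopsies left out. Of 19 aminoacyl-tRNA synthetase rows, which charge tRNAs with amino acids, 3 had a log2 fold change above 0. The median was -0.13, and VARS alone had an unadjusted p under 0.05. C5H12orf45 (NOPCHAP1), a chaperone in the assembly of small nucleolar ribonucleoproteins, had 45.4, 24.3, 51.8 and 23.4 CPM against 68.9, 97.3, 84.6 and 86.8 CPM. All cleavage biopsies were higher, with a log2 fold change of -1.22, an edgeR adjusted p of 0.717 and a DESeq2 adjusted p of 0.0504. PAPD5, a noncanonical poly(A) polymerase, had 28.8 ± 7.93 CPM in the blastocyst group and 14.7 ± 3.01 in the cleavage group, without overlap. It was the only one of 8 tested RNA tailing rows with an unadjusted p under 0.05. PAPD4 (TENT2), which lengthens poly(A) tails in the cytoplasm, had 245 ± 46.2 and 247 ± 72.8 CPM.

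Mitochondria and metabolism. MUT (MMUT), the mitochondrial methylmalonyl-CoA mutase, had 86.4, 126, 52.1 and 79.1 CPM against 43.9, 40.6, 49.9 and 45.9 CPM. The cleavage biopsies formed a narrow band below all blastocyst biopsies, and D24 lay just above that band (log2 fold change 0.93, SE 0.30, edgeR adjusted p 0.937). PHB (PHB1), prohibitin of the inner mitochondrial membrane, had 29.1, 35.7, 49.96 and 26.6 CPM against 41.0, 43.6, 104 and 109 CPM. D10 and D29 were far above the rest, and the log2 fold change was -1.08. It also differed between the letters at an unadjusted edgeR p under 0.05, with D above B by 0.79. Of the 20 symbol rows of smallest p, so did SEPT4 (1.21) and, with D below B, C7H5orf30 (-2.96). Among the other named rows COL21A1 (0.88) and ENSBTAG00000047203 (0.77) had D above B at this p. ZNF729 (-1.26), KIAA1147 (-0.90) and BCL2L10 (-0.39) had D below B. BAAT, which conjugates bile acids with amino acids in the liver, had 2.05 ± 2.03 against 9.16 ± 3.94 CPM. MALRD1, a membrane protein tied to bile acid control in the intestine, had 117 ± 38.9 against 64.4 ± 11.5 CPM with groups apart.

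Cytoskeleton and matrix. SEPT11, a septin, which are GTPases that form filaments, had 260, 295, 385 and 272 CPM against 194, 170, 217 and 172 CPM. All blastocyst biopsies were higher, with a log2 fold change of 0.69 (SE 0.22, edgeR adjusted p 0.937). SEPT4 lay lower, at 6.24 ± 3.44 against 17.9 ± 10.4 CPM, with D10 (31.1) and D29 (20.9) highest. The other 9 of 11 tested septins had an unadjusted p over 0.05. COL24A1, a fibrillar collagen, had 48.2, 46.8, 61.0 and 51.5 CPM against 148, 69.5, 94.6 and 91.5 CPM, without overlap (log2 fold change -0.96). COL21A1, a collagen that associates with fibrils, had 38.2 ± 14.2 against 18.9 ± 7.14 CPM, with overlap. Of 12 tested collagens 1 was higher and 1 lower at an unadjusted p under 0.05, with a median of 0.18.

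Further named rows. C7H5orf30 (MACIR), a regulator of macrophage metabolism, had 8.12, 7.20, 2.04 and 2.08 CPM against 0.658, 0.158, 0 and 0 CPM. The adjusted p was 0.932 with edgeR and 0.0166 with DESeq2, which did not call it without B20, without B21 or on the rows edgeR tested. An Ensembl row had counts within 10% of it in every biopsy. FAM200B, which derives from a transposase, had 12.6, 7.68, 18.6 and 19.2 CPM against 13.4, 126, 287 and 21.4 CPM. Its cleavage mean rests on D10 and B23, the groups overlapped, and a NONCODE row had nearly the same counts. The adjusted p was 0.717 with edgeR and 0.0259 with DESeq2, and its calls without B20, B21, B23, D10 or D27 did not include it. RNF148, a RING finger protein, had 33.8 ± 7.42 against 14.7 ± 7.86 CPM, with B14 (25.6) next to B20 (28.1). Among 47 tested zinc finger genes (median -0.08), ZNF792 had 21.4 ± 2.94 against 8.15 ± 6.43 CPM without overlap. ZNF729 had 18.6 ± 15.9 against 52.9 ± 39.3 CPM, with overlap. Among 81 tested open reading frame genes (median -0.14), KIAA1147 had 56.8 ± 19.9 against 26.6 ± 16.95 CPM, with overlap, and CXHXorf36 2.40 ± 1.34 against 0.403 ± 0.224 CPM, without overlap. With no biopsy left out, none of these 4 passed a test, with edgeR adjusted p of 0.99 or more and DESeq2 adjusted p of 0.0869 to 0.421. DESeq2 called ZNF729 only without B21 and KIAA1147 only without B23.

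DESeq2 alone tested 3 further symbol rows that it called, all at very low counts. RSKR, related to ribosomal S6 kinases, had 106, 46, 21 and 6 counts in B20, B21, D24 and D27, and 1 in the cleavage group, a ratio of 179 (95% counting interval 31.7 to 7115). Without B20 the ratio was 97.0 (16.9 to 3883), and DESeq2 did not call it. RSKR had 0 CPM in every matched biopsy, at most 0.298 CPM in whole oocytes and 1.45 to 35.7 CPM in granulosa cells. The part of granulosa RNA in its counts was not tested. FAM200A had 110 and 112 counts in B21 and D24, 0 in B20, 1 in D27 and 1 in the cleavage group. ARL9, a small GTPase, had 1 count in the blastocyst group and 8, 43, 3 and 42 in B14, B23, D10 and D29. With 1 biopsy left out, DESeq2 called FAM200A only without B20, D10 or D27 and ARL9 only without B14, D10 or D24. The 3 rows are not among those edgeR tested. Intervals cover counting error only, not the larger spread between biopsies.

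Lists in which no member had an unadjusted p under 0.05 are given for completeness. They were the 11 MARCH ubiquitin ligases tested (median 0.16), 5 retroelement silencing genes (-0.25), 6 germ cell genes (-0.56), 4 imprinted and X noncoding RNAs (0.36), 6 tRNA loci (-0.08) and 4 granulosa and cumulus markers (0.21). MORC1, which silences transposons in germ cells, had 33.2 ± 12.9 against 54.3 ± 13.5 CPM. MARCH4 had 8.64, 10.6, 8.92 and 7.16 CPM in D24, B21, B20 and D27 and 3.36 to 6.15 CPM in the cleavage group, without overlap. Its log2 fold change was 0.90 (SE 0.54). The list of mitochondrial genome transcripts had 0 rows under a symbol.

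The symbol rows with the most counts overlapped between the groups. BCL2L10, a BCL2 family member abundant in oocytes, had 2038 ± 388 against 1836 ± 281 CPM. RN18S1, the ribosomal 18S RNA, had 1620 ± 466 and 1616 ± 353 CPM. RAMMET (RAMAC), a cofactor of mRNA cap methylation, had 919 ± 111 and 875 ± 155 CPM. Differences in these rows were within the spread of the biopsies.

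Each biopsy has granulosa cells of the same follicle in the series, which allows the fate difference to be compared between both sources in 1 fit. The difference, biopsy minus granulosa, was called by edgeR in 155 of 28229 rows as higher (0.549%) and in 1793 as lower (6.35%). The granulosa table holds almost no counts in NONCODE rows (0 to 3 rows detected per library), and without those rows the calls were 188 (0.738%) and 2045 (8.03%). Blastocyst biopsies had 3348 to 3810 NONCODE rows detected and cleavage biopsies 3006 to 3603. A difference between the cells and a difference in how the tables were counted cannot be told apart here. Rows with at least 50 CPM in each whole oocyte and under 0.5 CPM in each cumulus library, NONCODE rows left out, mark oocyte RNA. They held 0.00778% to 0.658% of granulosa counts, and 0.000603% to 0.000988% in cumulus libraries, which the rule keeps low. H1FOO had 12.9 ± 7.15 CPM in granulosa cells of the blastocyst group and 2.02 ± 3.15 in the cleavage group. The part of oocyte RNA in the granulosa fate difference was not tested. Without follicle D27 there were 0 calls in the full fit, with 5511 rows at an unadjusted p under 0.05, and without B20 there were 104. The calls numbered 442 without B14, 1027 without B21, 4227 without B23, 959 without D24 and 357 without D29. COL24A1 was among the calls. Its log2 fold change of -0.96 in biopsies stood against 3.54 in granulosa cells, where the means were 90.0 ± 67.1 and 7.77 ± 7.73 CPM. The difference was -4.39 (SE 0.94, edgeR adjusted p 0.0155). COL21A1 had 1.02 in biopsies and -0.92 in granulosa cells (difference 2.10, edgeR adjusted p 0.034). MALRD1 was higher in the blastocyst group in both, by 0.86 in biopsies and 4.71 in granulosa cells (difference -3.81, edgeR adjusted p 0.0349). C7H5orf30 had 4.51 in biopsies and -0.92 in granulosa cells (difference 5.63, edgeR adjusted p 0.0181). None of these 4 kept the call without follicle D27 or without B20. With D27 left out the edgeR adjusted p was 0.0743 for COL24A1, 0.136 for COL21A1, 0.118 for MALRD1 and 0.0673 for C7H5orf30. With B20 left out it was 0.0741, 0.069, 0.119 and 0.0755 in the same order. COL24A1 also lost the call without D29 (0.051), MALRD1 without B14, D24 or D29 (up to 0.0877) and COL21A1 without any follicle but B21 (up to 0.0838 for the others).

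The 4 biopsies of the matched set, normalised in a table of their own and of unknown fate, give a range for the named rows. For 7 of the 20 symbol rows of smallest p, both group means lay within that range. They were OR4X2B, OR4X16, OR4X2, HIST1H2BB, C7H5orf30, C5H12orf45 and HIST1H1A. In the matched biopsies OR4X2B ran from 0 to 67.1 CPM, OR4X16 from 0.697 to 57.5 and OR4X2 from 0 to 15.1. SLC5A3 ran from 25.3 to 56.2 CPM there, so the cleavage mean lay inside and the blastocyst mean above. SEPT11 ran from 135 to 192 CPM, with the blastocyst mean above. COL24A1 ran from 82.0 to 114 CPM, with the blastocyst mean below. H1FOO ran from 500 to 1426 CPM and held both group means.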

How the data were processed

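The authors deposited raw counts per row for each library, per the files' whole-number values, in 4 RNA tables. Per the labels' protocols, libraries were made with the SMART-Seq HT and Nextera XT kits. Trim Galore, cutadapt, STAR and featureCounts are in the submitters' processing notes. Versions, genome build and strand setting are not stated in the labels. Groups came from the titles. Low rows were removed with filterByExpr (99.3% to 99.7% of each biopsy's counts stayed), libraries were scaled by TMM, and edgeR 4.0.16 in R 4.3.3 gave robust quasi-likelihood F tests. A call is a Benjamini-Hochberg adjusted p under 0.05. DESeq2 1.42.0 (Wald test) took all rows that had a count. Fold changes are log2, blastocyst minus cleavage. Single values were compared by exact permutation over 70 assignments (smallest p 0.0286). The tests were tried on simulated counts.

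RefSeq names (ARS-UCD2.0) were used for names only. The 50 named rows were taken by rule: 10 symbol rows each way by edgeR p, symbol rows called by DESeq2, up to 4 members of each of 19 lists, markers, the 5 most abundant, and 2 Ensembl and 2 NONCODE rows each way. MORC1, MARCH4, PAPD4, HIST1H1D, H1FNT, H1FX, HIST2H2AA4 and HIST1H2AK were named after their values were seen. The groups and lists were chosen with earlier results of these data known. Biopsy and granulosa libraries share follicle labels. Deviations of same-label libraries correlated at -0.0203 to 0.186, and 5 of 8 biopsies correlated best with the granulosa library of their own label. This match was not tested, and the pairing is taken from the series text. The 24 value columns of the polar body table could not be tied to samples and were not used. Python 3.11.15, pandas 2.3.3, numpy 2.4.6 and matplotlib 3.10.9 made tables and figures.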

Additional observations from a re-analysis of the deposited data

Results flagged for a closer look

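In 12 of 116 groups of 4 biopsies, the gap from 1 biopsy to its nearest neighbour took up most of the group's range, however narrow that range. Chance gives about 1 in 20 for rows not chosen by their values, and these rows were mostly chosen by p or counts, so the 12 are not read against it. In the cleavage group these were SLC5A3 at 42.2 CPM in B23 (others 39.01 to 39.5), CYR61 at 1.10 CPM in D29 (others 0 to 0.158), WISP2 at 1.13 CPM in B14 (others 0 to 0.171) and NOV at 0 CPM in D10 (others 0.141 to 0.158). A single count gave RSKR 0.0526 CPM in B23 and FAM200A 0.0570 CPM in D10, with the others at 0. In the blastocyst group they were HIST1H1A at 209 CPM in D24 (others 132 to 141), VARS at 6.78 CPM in B21 (others 8.18 to 8.31), KIAA1147 at 86.3 CPM in B20 (others 42.8 to 49.7) and CTGF at 2.32 CPM in B20 (others 8.31 to 9.14). ARL9 at 0.0550 CPM (1 count) and NONBTAG015595.2 at 0.110 CPM (2 counts) had D24 above 0 and the others at 0.

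The fate difference was not the same in biopsies and granulosa cells, by the interaction term of the joint edgeR fit, for 9 named rows without a NONCODE name. The differences (biopsy minus granulosa, log2) were 5.63 for C7H5orf30, -3.81 for MALRD1, -4.39 for COL24A1, 2.10 for COL21A1, 8.98 for RSKR, 8.72 for FAM200A, -5.68 for ARL9, 2.51 for ENSBTAG00000055158 and -4.58 for ENSBTAG00000027900. The 9 adjusted p values were 0.0104 to 0.0436, and each was over 0.05 without follicle D27. Without B20 it was over 0.05 for 6 of the 9, with RSKR (0.0459), FAM200A (0.047) and ENSBTAG00000027900 (0.0447) still called. With the follicle label as a block FAM200A (0.0612) and ARL9 (0.119) were not called. RSKR, FAM200A and ARL9 had 1 count in 1 group of biopsies, so their sizes depend on the fit's prior count.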

How the results depend on the processing

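The fate comparison called 0 rows under DESeq2 size factors, library totals, a mean of 10 CPM or more, the letter as covariate, an adjusted p under 0.10, symbol rows alone, identical rows kept once and each biopsy left out. It called 27 without a filter and 182 with DESeq2, which called 56 on the rows edgeR tested and 88 to 353 with 1 biopsy left out. The letter comparison called 136 rows without a filter and 0 to 1 with 1 biopsy left out. The biopsy against granulosa difference called 1948 rows, 1401 with the follicle label as a replicate block (72 higher, 1329 lower), 3783 with library totals, 1237 without a filter and 0 to 4227 with 1 follicle left out. Its median over all rows was -0.15, and -0.32 and -0.80 with size factors and library totals. The blastocyst and cleavage biopsies share no label, so the block applies to this fit alone. Oocyte rows had at least 50 CPM in each whole oocyte and under 0.5 CPM in each cumulus library. Of these 257 rows 140 are NONCODE rows, a kind of which only 2 rows are detected in each cumulus library, so the share is no measure of oocyte RNA alone. It differed by 0.366 percentage points, by 0.642 with the 20 and 1 CPM bounds (exact permutation p = 0.0286) and by -0.183 without NONCODE rows. With 1 biopsy left out, differences of shares ran from 0.957 to 1.55 (NONCODE), -0.359 to -0.136 (LOC), -0.0785 to 0.0393 (symbol) and -0.00396 to 0.00161 percentage points (somatic). Of 538 alternative values for 46 named rows, 15 changed sign, 15 gained and 5 lost a call (all 5 for RSKR). The sign changes were in RN18S1 (-0.0029 with DESeq2, -0.0013 with size factors, -0.025 with the letter, -0.0081 with library totals, and -0.21 to 0.14 with 1 biopsy left out), WISP3 (-0.11 to 0.27), WISP1 (-0.62 to 1.93) and RAMMET (-0.018 to 0.16). The fits without NONCODE rows, without D10 and B20 together, with identical rows once, and the DESeq2 fits with fewer biopsies or rows, and the bounds and ratios without 1 biopsy, were chosen after seeing the data.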
